A study of Homo sapiens with 4 samples.

Results

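The integrated stress response (ISR) and the unfolded protein response (UPR) were followed through 42 genes in U251 cells depleted of PRMT3, a protein arginine methyltransferase. The genes were chosen by name for their roles in these pathways: 6 transcription factors of the ISR, 6 feedback regulators and stress effectors, 11 amino acid and one-carbon enzymes, 3 secreted factors or receptors, 3 kinases of eIF2α, 3 UPR sensors or transcription factors, and 10 endoplasmic reticulum (ER) chaperones, folding enzymes or degradation factors. All 42 were found by symbol among the 15575 genes of the count table, and all 42 had enough reads to be tested with 13172 genes.

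In the ISR, kinases that sense unfolded protein, amino acid shortage, haem shortage or viral RNA phosphorylate the translation factor eIF2α, which slows protein synthesis but favours translation of the mRNA for ATF4. ATF4, often together with a C/EBP partner such as CEBPG, then turns on genes for amino acid synthesis and transport, tRNA charging, growth arrest and feedback. In the UPR, unfolded protein in the ER acts through PERK (the kinase encoded by EIF2AK3), through IRE1 (encoded by ERN1), which splices the XBP1 mRNA, and through ATF6, a membrane-bound factor that is cut and moves to the nucleus, and the last 2 routes raise ER chaperones and degradation factors.

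The study asked what PRMT3 depletion does to the transcriptome of glioblastoma (GBM) cells. RNA was sequenced from U251, an established human GBM cell line, after 72 h with a control lentivirus (Ctrl, 2 libraries) or a lentivirus carrying a short hairpin RNA against PRMT3 (PRMT3-KD, 2 libraries). The Ctrl labels name pGreen, which the PRMT3-KD labels do not, and whether the vectors of the 2 groups matched is not given. The paper describes the control of this sequencing as shCtrl, and its mouse methods name shGFP. By that account all 4 libraries came from transduced cells, so the response to transduction itself is in both groups. A difference between the vectors cannot be told apart from PRMT3 depletion. The study made 2 PRMT3 hairpins, and the sources used here do not name the one in either PRMT3-KD library. The labels do not state that the libraries of a group came from separate cultures, so p-values measure the spread between these libraries, which may be technical, and in bulk RNA fewer cells expressing a gene and less RNA per cell cannot be told apart.

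Total counts lay between 24804250 and 29756313 per library, and the 42 genes took between 0.668% and 0.715% of them. PRMT3 (ENSG00000185238) had 535 counts in both Ctrl libraries and dropped to 77 and 45 after depletion, a log2 fold change of -3.08 ± 0.314 (SE, edgeR quasi-likelihood adjusted p = 0.0177). The glial and mesenchymal genes VIM, CD44, NES and SOX2 were expressed, whereas GFAP was low, at 13.1 and 14.3 CPM in Ctrl and 1.26 and 5.39 after depletion. S100B, another glial gene, was low as well, at 2.0 and 2.1 CPM in Ctrl and 1.9 and 2.8 after depletion. Of the markers of other lineages, CDH1 (0, 0, 4 and 1 counts) and PTPRC (5, 2, 5 and 7) were near 0, and EPCAM, PECAM1 and RBFOX3 were not found. Others were detected: CD68 at 24.0, 25.6, 29.6 and 29.7 CPM, SYT1 at 10.03, 11.1, 14.3 and 14.0 CPM, and VWF at mean levels of 2.21 CPM in Ctrl and 1.82 CPM after depletion. The epithelial gene KRT8 was also detected, at 5.38, 5.82, 10.8 and 13.2 CPM. CD68 and SYT1 were higher in both depleted libraries without passing (edgeR adjusted p = 0.114 and 0.0754). Among all markers read, SOX9 fell and KRT8 rose (log2 fold changes -0.65 and 1.10, edgeR adjusted p = 0.0215 and 0.0248), and their part in the results was not tested. The 2 Ctrl libraries were far closer to each other than the 2 PRMT3-KD libraries were: the biological coefficient of variation was 0.0105 within Ctrl and 0.203 within PRMT3-KD. The edgeR fit uses a single spread per gene for both groups.

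Levels are CPM, read counts scaled to a common library size after correction by trimmed mean of M-values (TMM), given in the order Ctrl 1, Ctrl 2, PRMT3-KD 1 and PRMT3-KD 2, and changes are PRMT3-KD against Ctrl. A gene is said to have risen or fallen when its edgeR adjusted p was under 0.05 and its change over 1.5-fold. By that rule 3 of the 42 genes rose (GDF15, NUPR1 and ERN1), 3 fell (CEBPG, EIF2AK1 and ALDH18A1) and 36 did neither. Of all 13172 genes, 4.97% rose and 5.97% fell, so 7.14% of the members in each direction lies near the background. The median log2 fold change was 0.13 over the members and 0.01 over all genes tested. Both PRMT3-KD libraries lay above both Ctrl libraries for 18 members and below them for 12, against 33.3% and 33.8% of all genes, and the remaining 12 members overlapped. With 2 libraries against 2, an exact permutation test of a single gene cannot go below p = 0.333.

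The number of calls depended on the test and on single libraries, while the direction of the 6 called genes did not under any setting run. In all 6 the PRMT3-KD libraries lay on the same side of both Ctrl libraries. Leaving out a library could therefore hardly turn their sign, and the kept direction is no separate support. DESeq2 called 8 members higher and 4 lower, against 6.39% and 7.53% of all genes; the added genes were CTH, PPP1R15A, SESN2, STC2 and VLDLR above Ctrl and PHGDH below it. Without Ctrl 1 or without Ctrl 2, edgeR called 0 members, with adjusted p of the 6 genes between 0.0604 and 0.31, although 8 and 4 members without Ctrl 1, and 6 and 3 without Ctrl 2, passed an unadjusted p under 0.05 with over 1.5-fold in the upward and downward directions. Of all genes 5.51% and 6.67% did so without Ctrl 1, and 5.48% and 6.84% without Ctrl 2. Without PRMT3-KD 1 edgeR called 5 members higher and 9 lower, NUPR1 no longer among them, against 10.7% and 12.2% of all genes. Without PRMT3-KD 2 it called 13 higher and 3 lower, against 10.1% and 12.2%. In those last 2 fits the lone PRMT3-KD library is assumed to vary as little as the Ctrl pair.

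**Figure D1:**
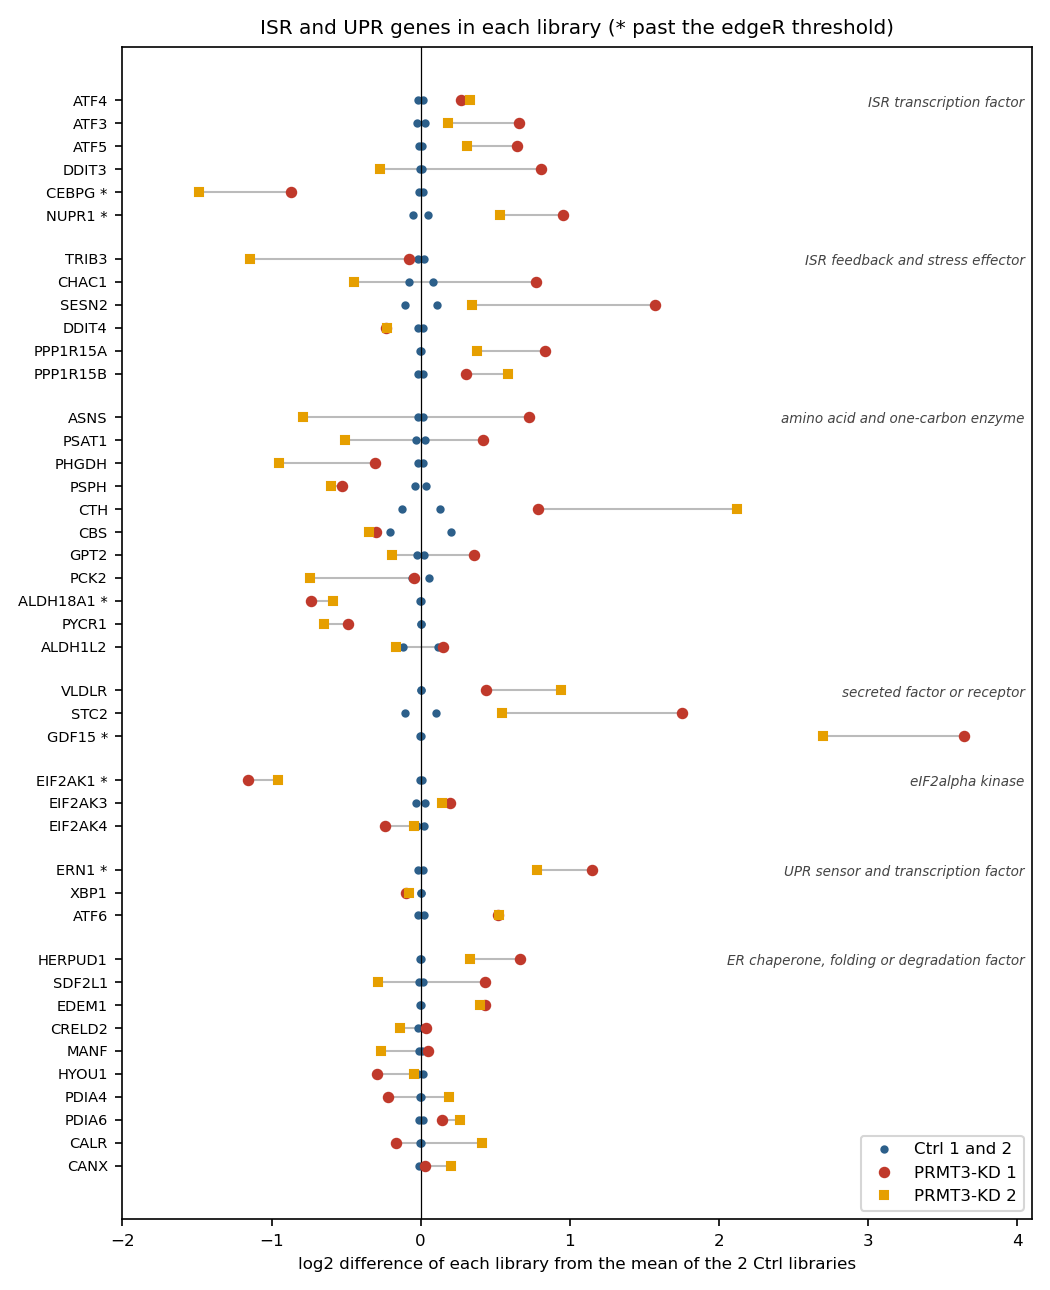
Log2 difference of each PRMT3-KD library from the Ctrl mean (horizontal axis) for all 42 genes, grouped by role, with the 2 Ctrl libraries as reference. GDF15 stands furthest to the right at 3.64 and 2.70, and 11 genes, ASNS and CALR among them, have their PRMT3-KD libraries on opposite sides of the Ctrl mean.

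The ISR transcription factors did not move as 1 block: NUPR1 rose, CEBPG fell, and ATF4 itself, with ATF3, ATF5 and DDIT3, did not pass the threshold. NUPR1 (ENSG00000176046, GRCh37 chr16:28544029-28550329, minus strand), a small stress-induced chromatin protein, measured 31.0, 33.2, 62.2 and 46.5 CPM. Both PRMT3-KD libraries lay above both Ctrl libraries, with mean levels of 54.4 ± 11.1 and 32.1 ± 1.57 CPM (SD over 2 libraries). The log2 fold change of NUPR1 was 0.76 ± 0.165 (SE), or 1.69-fold (edgeR adjusted p = 0.0472), and scaling by library totals in place of TMM moved that adjusted p to 0.0758.

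CEBPG (ENSG00000153879, GRCh37 chr19:33864591-33873592, plus strand), a C/EBP family factor that pairs with ATF4 on DNA, measured 73.0, 71.7, 39.5 and 25.8 CPM. Both PRMT3-KD values were far under the Ctrl pair, and PRMT3-KD 2 was the lowest of the 4. The level fell by 1.15 on the log2 scale, to 0.451 of the Ctrl level (SE 0.219, edgeR adjusted p = 0.0374).

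ATF4, the central activator of the pathway, measured 237, 232, 283 and 295 CPM, so that both PRMT3-KD libraries exceeded both Ctrl libraries by a small step. The log2 fold change of 0.30 ± 0.0691 gave an edgeR adjusted p of 0.0515, and the size of 1.23-fold is under the fold threshold in any case. Per kilobase of exon, ATF4 was the most abundant of the 6 factors in Ctrl, at 89.7 RPKM, against 17.8 for CEBPG and 5.83 for NUPR1. RPKM is CPM divided by the length in kilobases of all annotated exons of a gene merged. That length was 2613 bases for ATF4, 4056 for CEBPG and 5508 for NUPR1. It can exceed the transcript present in the cells, so RPKM compares genes only roughly. ATF4 activity depends in large part on translation, which mRNA counts do not measure.

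The other factors had positive estimates that did not pass. ATF5, an ATF4-related factor that is translated under stress, measured 36.3, 35.8, 56.4 and 44.7 CPM (log2 fold change 0.49 ± 0.136, edgeR adjusted p = 0.0754). ATF3, an early stress-induced factor, measured 15.1, 14.5, 23.5 and 16.9 CPM (0.44 ± 0.187, edgeR adjusted p = 0.166). The paper names ATF3 among apoptosis genes upregulated in its PRMT3-depleted U251 cells. Here both PRMT3-KD libraries were above both Ctrl libraries, but at 1.36-fold ATF3 passed in neither edgeR nor DESeq2. DDIT3, the pro-apoptotic factor CHOP, split between the 2 depleted libraries, at 17.6, 17.4, 30.6 and 14.5 CPM, which put PRMT3-KD 1 above Ctrl and PRMT3-KD 2 below it (0.36 ± 0.37, edgeR adjusted p = 0.525).

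**Figure D2:**
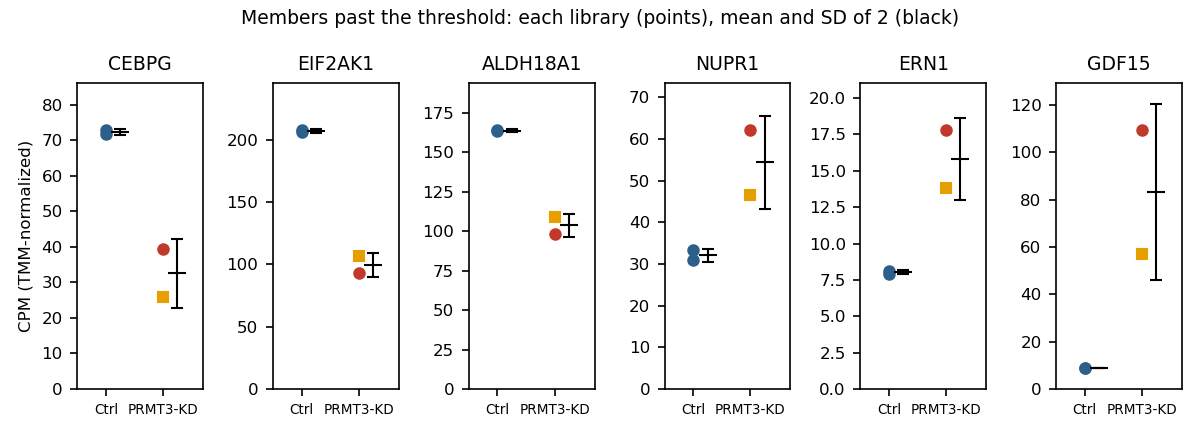
TMM-scaled CPM in each of the 4 libraries (points) with the mean and SD of each group of 2 (black) for the 6 genes past the threshold, on axes from 0. In every panel the 2 PRMT3-KD points lie on 1 side of the 2 Ctrl points, which nearly coincide; GDF15 goes from 8.75 to 83.2 CPM and EIF2AK1 from 207 to 99.8 CPM on average.

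In edgeR 0 of the 6 feedback regulators and stress effectors passed, with 3 at an unadjusted p under 0.05 (37.6% of all genes were under it), and SESN2 and PPP1R15A passed in DESeq2. The 3 were PPP1R15A, PPP1R15B and DDIT4. Across the 6 genes the median log2 difference from Ctrl was 0.54 in PRMT3-KD 1 and 0.06 in PRMT3-KD 2. PPP1R15A, the stress-induced subunit GADD34 that directs a phosphatase to eIF2α and so ends the response, measured 89.4, 88.7, 159 and 116 CPM, with both PRMT3-KD values higher (log2 fold change 0.62 ± 0.169, edgeR adjusted p = 0.0711). Its constitutive counterpart PPP1R15B measured 74.0, 72.5, 90.3 and 110.0 CPM, again without overlap but with PRMT3-KD 2 the highest (0.45 ± 0.118, edgeR adjusted p = 0.0661). SESN2, a leucine sensor that restrains mTORC1, measured 13.5, 11.7, 37.4 and 15.9 CPM, so that nearly all of its difference came from PRMT3-KD 1 (1.08 ± 0.432, edgeR adjusted p = 0.151).

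TRIB3, a pseudokinase that ATF4 and CHOP induce and that damps both, was also lower in PRMT3-KD 2 than in PRMT3-KD 1, but from a level near Ctrl. It measured 22.4, 21.9, 21.0 and 10.03 CPM, with PRMT3-KD 1 just under the Ctrl pair and PRMT3-KD 2 at a log2 difference of -1.14 (-0.52 ± 0.361 over both, edgeR adjusted p = 0.358). CHAC1, which breaks down glutathione, measured 10.3, 9.20, 16.6 and 7.15 CPM, on opposite sides of Ctrl (0.28 ± 0.422, edgeR adjusted p = 0.665). DDIT4, the mTORC1 inhibitor REDD1, was slightly lower in both depleted libraries, at 59.8, 58.6, 50.5 and 50.5 CPM (-0.23 ± 0.0726, edgeR adjusted p = 0.0976).

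Of the 11 amino acid and one-carbon enzymes, among the best known targets of ATF4, 1 fell and 10 did not pass. That 1 gene is 9.09% of the enzymes, against 5.97% of all genes that fell. Of the enzymes' log2 fold changes 7 were negative, as were 6523 of 13172 over all genes tested. The median of the enzymes was -0.34, which is the value of CBS. With the reads of CBS summed with those of its near-identical copy CBSL, 6 were negative and the median was -0.01. The median difference from Ctrl was -0.04 in PRMT3-KD 1 and -0.59 in PRMT3-KD 2. ALDH18A1 (ENSG00000059573, GRCh37 chr10:97365698-97416468, minus strand), which makes the precursor of proline, measured 163, 164, 98.4 and 109 CPM. Both PRMT3-KD values sat well under a tight Ctrl pair, and the level fell by 0.66 on the log2 scale (SE 0.0829), to 0.633 of Ctrl (edgeR adjusted p = 0.0203).

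The next enzyme of proline synthesis, PYCR1, measured 67.4, 67.4, 48.0 and 43.0 CPM, and PSPH, the last step of serine synthesis, 42.2, 44.3, 29.99 and 28.5 CPM. Their adjusted p-values in edgeR were 0.0276 and 0.0263, with log2 fold changes of -0.57 ± 0.0893 and -0.56 ± 0.0864, just short of the 1.5-fold rule. With library totals in place of TMM both passed it. PHGDH, the first enzyme of serine synthesis, measured 224, 229, 184 and 117 CPM, lower in both depleted libraries but by unequal amounts (-0.59 ± 0.226, edgeR adjusted p = 0.138).

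ASNS, the asparagine synthetase that serves as the textbook readout of ATF4, had the widest split among the enzymes whose libraries fell on opposite sides. It measured 48.7, 47.4, 79.5 and 27.7 CPM from 1348, 1305, 2021 and 788 counts, so that PRMT3-KD 1 was the highest library and PRMT3-KD 2 the lowest. The log2 differences from Ctrl were 0.73 and -0.79, which left a mean of 0.16 ± 0.503 (edgeR adjusted p = 0.847). PSAT1, the middle enzyme of serine synthesis, had the same pattern at 85.5, 82.1, 112 and 59.1 CPM (0.03 ± 0.315, edgeR adjusted p = 0.957). GPT2, a mitochondrial alanine aminotransferase, measured 50.7, 52.5, 66.2 and 45.3 CPM (0.11 ± 0.198, edgeR adjusted p = 0.722).

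CTH, which makes cysteine from cystathionine, ran the other way. It measured 7.04, 5.89, 11.1 and 28.1 CPM, with PRMT3-KD 2 the highest library by a wide margin (log2 fold change 1.60 ± 0.481, edgeR adjusted p = 0.0877). CBS, the enzyme one step earlier, had 56, 74, 48 and 52 counts, while its near-identical copy CBSL had 579, 604, 632 and 627, so how reads were divided between the copies is uncertain. Summed, the pair had a log2 fold change of 0.09 (edgeR adjusted p = 0.585). PCK2 (16.1, 17.4, 16.2 and 9.997 CPM), a mitochondrial enzyme of gluconeogenesis, and ALDH1L2 (1.12, 0.945, 1.14 and 0.915 CPM), a mitochondrial folate enzyme near the lower end of detection, overlapped between groups.

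The secreted factors and the receptor gave the largest change of the whole set. GDF15 (ENSG00000130513, GRCh37 chr19:18485541-18499986, plus strand), a stress-induced hormone of the TGF-β superfamily that acts on appetite centres of the brainstem, measured 8.73, 8.76, 109.6 and 56.9 CPM from 242, 241, 2784 and 1617 counts. Both PRMT3-KD libraries exceeded both Ctrl libraries many times over, at log2 differences of 3.64 and 2.70. Mean levels were 8.75 ± 0.0195 and 83.2 ± 37.2 CPM for the 2 groups (SD over 2 libraries), which is 9.51-fold and 3.25 ± 0.362 on the log2 scale (edgeR adjusted p = 0.0191).

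STC2, a secreted glycoprotein, measured 3.90, 3.38, 12.3 and 5.32 CPM, higher in both depleted libraries and more so in PRMT3-KD 1 (log2 fold change 1.27 ± 0.445, edgeR adjusted p = 0.117). VLDLR, a lipoprotein receptor that ATF4 induces, was most abundant in PRMT3-KD 2, at 147.8, 147.9, 201 and 284 CPM (0.71 ± 0.182, edgeR adjusted p = 0.0631). All 3 genes of the group had both depleted libraries above both Ctrl libraries, as did 33.3% of all genes, and both STC2 and VLDLR passed in DESeq2.

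Of the 3 eIF2α kinases among the members, EIF2AK1 fell and the others did not pass. EIF2AK2 (PKR), the kinase that responds to viral RNA, was read with the other ISR genes below. It measured 99.6, 101, 112 and 121 CPM and did not pass either (log2 fold change 0.22 ± 0.0755, edgeR adjusted p = 0.117). EIF2AK1 (HRI, ENSG00000086232, GRCh37 chr7:6061878-6098806, minus strand), the kinase that responds to haem shortage and relays mitochondrial stress, measured 208, 206, 93.0 and 106.6 CPM. The 2 depleted libraries lay close to each other at 0.482 of the Ctrl level, a log2 fold change of -1.05 ± 0.0942 (edgeR adjusted p = 0.0154). Exons of EIF2AK1 overlap AIMP2 on the opposite strand, and whether reads were counted by strand is not given in the sources used here. The same uncertainty holds for ATF5, DDIT3, ALDH1L2, CRELD2 and PDIA6, which overlap opposite-strand genes, and reads of EIF2AK1, ATF4, ASNS, PSAT1, PSPH and XBP1 could be shared with annotated pseudogenes.

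EIF2AK3 (PERK), which senses unfolded protein in the ER, measured 33.0, 31.7, 37.2 and 35.8 CPM, and EIF2AK4 (GCN2), which senses uncharged tRNA, 105, 108, 90.5 and 103 CPM. Their log2 fold changes were 0.17 ± 0.084 and -0.14 ± 0.0935, with edgeR adjusted p-values of 0.214 and 0.342. Both had small differences without overlap between groups.

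Among the UPR sensors, ERN1 rose. ERN1 (IRE1, ENSG00000178607, GRCh37 chr17:62116440-62208179, minus strand), the kinase and nuclease of the ER membrane, measured 8.12, 7.93, 17.8 and 13.8 CPM. Both PRMT3-KD values stood clear of the Ctrl pair, and the log2 fold change was 0.98 ± 0.168 or 1.97-fold (edgeR adjusted p = 0.0318). ATF6 measured 107.2, 104.2, 151.1 and 152.4 CPM, a step of nearly equal size in both depleted libraries (0.52 ± 0.068, edgeR adjusted p = 0.0211), but at 1.44-fold it stayed under the fold threshold.

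XBP1, whose mRNA is the substrate of IRE1, was at 67.1, 67.0, 62.5 and 63.6 CPM, with the depleted libraries slightly below Ctrl (-0.09 ± 0.0703, edgeR adjusted p = 0.415). Counts per gene do not separate its spliced from its unspliced form.

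Of the 10 ER chaperones, folding enzymes and degradation factors, 0 were called by edgeR, by DESeq2 or by limma-voom, with 2 (EDEM1 and HERPUD1) at an unadjusted edgeR p under 0.05, against 37.6% of all genes, and their median log2 fold change was 0.12. EDEM1, a lectin that sends misfolded glycoproteins to degradation, measured 80.1, 79.8, 107.6 and 105.2 CPM, higher in both depleted libraries by a like amount (0.41 ± 0.0686, edgeR adjusted p = 0.0303) but at 1.33-fold. HERPUD1, an ER membrane protein of the same degradation route, measured 86.3, 86.5, 137 and 109 CPM (0.51 ± 0.13, edgeR adjusted p = 0.0636). PDIA6, a disulphide isomerase, measured 416, 424, 463 and 505 CPM (0.20 ± 0.078, edgeR adjusted p = 0.137).

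The abundant lumenal chaperones differed little on average. CALR, the calcium-binding chaperone calreticulin and the most abundant of the 42 genes per kilobase in Ctrl (576 RPKM), measured 1613, 1618, 1442 and 2146 CPM, below Ctrl in PRMT3-KD 1 and above it in PRMT3-KD 2 (0.15 ± 0.203, edgeR adjusted p = 0.628). Its membrane-bound relative CANX measured 1286, 1269, 1304 and 1469 CPM (0.12 ± 0.0883, edgeR adjusted p = 0.39). PDIA4, another disulphide isomerase, measured 554, 552, 476 and 631 CPM, and HYOU1, a large ER chaperone of the HSP70 superfamily, 377, 385, 311 and 369 CPM. The depleted libraries lay on opposite sides of Ctrl for PDIA4 and on the same side for HYOU1, with log2 fold changes of 0.00 ± 0.151 and -0.17 ± 0.106. The remaining secretory factors MANF, CRELD2 and SDF2L1 had log2 fold changes of -0.10, -0.05 and 0.11, and their groups overlapped.

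The 2 PRMT3-KD libraries were less alike in these genes than the 2 Ctrl libraries. The median absolute log2 difference between PRMT3-KD 1 and PRMT3-KD 2 was 0.351 over the 42 members and 0.238 over all genes tested, and between the Ctrl libraries 0.031 and 0.0532. For 11 of the 42 genes (26.2%, against 25.7% of all genes) the PRMT3-KD libraries lay on opposite sides of the Ctrl mean. Among the 26 genes of the ATF4 arm, taken as the transcription factors, effectors, enzymes and secreted factors, 20 were lower in PRMT3-KD 2 than in PRMT3-KD 1, and the median log2 difference from Ctrl was 0.39 in PRMT3-KD 1 and -0.21 in PRMT3-KD 2. Over all genes tested 7070 of 13172 were lower in PRMT3-KD 2.

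The 13 genes of the ER arm had medians of 0.05 and 0.20 in PRMT3-KD 1 and PRMT3-KD 2, and 6 of them were lower in PRMT3-KD 2. PRMT3 itself differed between these libraries, at 3.03 and 1.58 CPM, and its part in the split was not tested. With 1 library on each side, no test of the difference between PRMT3-KD 1 and PRMT3-KD 2 was possible.

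**Figure D3:**
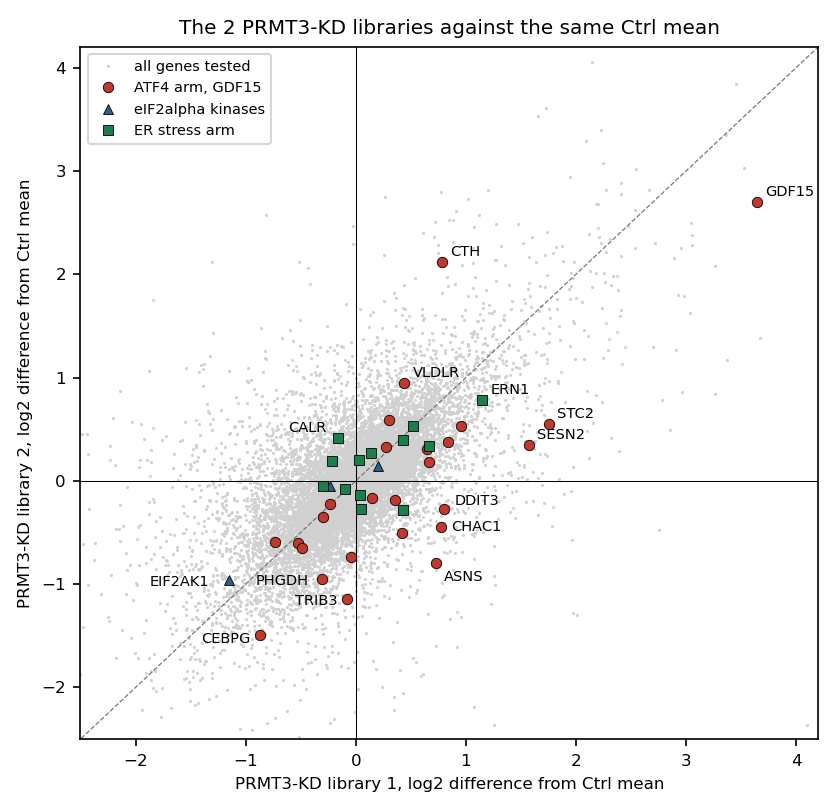
Log2 difference from the Ctrl mean in PRMT3-KD 1 (horizontal axis) and in PRMT3-KD 2 (vertical axis) for the 42 genes, marked by arm, over all genes tested in grey. Points under the diagonal are lower in PRMT3-KD 2, as for SESN2 at 1.57 and 0.34, ASNS at 0.73 and -0.79 and TRIB3 at -0.08 and -1.14, and CTH lies above it at 0.78 and 2.12.

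To set the members' sequence beside these values, the RefSeq promoter table (GRCh38.p14, windows from 250 bases before to 50 after a start site) was searched on both strands for letters of 3 known response elements. It held 36 of the 42 members, with 53 windows. The C/EBP-ATF response element (CARE, TGATGNAA), which ATF4 and its C/EBP partners bind, was in 11.3% of member windows and 3.62% of 35116 windows of all genes. The UPR element (TGACGTGG) was in 3.77% and 0.729%. The ER stress response element (ERSE), which is CCAAT, any 9 bases and CCACG, was in 13.2% and 0.0769%. The ERSE windows were 7 from 5 members, with the same CANX site counted in 3 of them. Members were chosen for their roles in these pathways, so higher shares than in all windows are no finding of their own. A match is a description of letters and not a site shown to be bound, and a gene without one lacks these letters in this window alone. No member window held 2 different elements.

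The 6 members with CARE letters are shown because ATF4-related genes did not move together. The 6 include CEBPG, which fell, ASNS and CHAC1, which were divided between the depleted libraries, and ATF3, PPP1R15B and HERPUD1, whose depleted libraries were higher without passing. Each line gives 30 bases read 5′ to 3′ along the gene's strand, with the matched letters in capitals and GRCh37 coordinates from an exact match, and CHAC1 and HERPUD1 carry the letters on the opposite strand.
ATF3, chr1:212738547-212738576, plus strand: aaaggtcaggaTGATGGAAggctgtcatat
CEBPG, chr19:33864966-33864995, plus strand: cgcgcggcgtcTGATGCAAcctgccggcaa
CHAC1, chr15:41245449-41245478, plus strand: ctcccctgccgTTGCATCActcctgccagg
PPP1R15B, chr1:204381154-204381183, minus strand: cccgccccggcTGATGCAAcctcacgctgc
ASNS, chr7:97501770-97501799, minus strand: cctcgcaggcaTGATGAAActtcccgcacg
HERPUD1, chr16:56965867-56965896, plus strand: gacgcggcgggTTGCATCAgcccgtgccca

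In ASNS the capitals lie from 68 to 61 bases before the start site, in CEBPG from 42 to 35 before the start of its second window, and in the other 4 genes between 227 and 169 bases before. ASNS and CEBPG, whose matches lie nearest to a start, measured log2 differences of 0.73 and -0.87 in PRMT3-KD 1 and of -0.79 and -1.49 in PRMT3-KD 2. GDF15 and ERN1 had none of the 3 motifs in their windows, and NUPR1 and EIF2AK1 were not matched in the table.

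The UPR element was found on the opposite strand of the fallen ALDH18A1 and on the gene's own strand of HYOU1, which was lower without passing.
ALDH18A1, chr10:97416510-97416539, minus strand: aggccctcgccCCACGTCAacagcgtaggg
HYOU1, chr11:118928086-118928115, minus strand: cgctggccccgTGACGTGGtccaatcccag

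The 5 members with ERSE letters were XBP1, CRELD2, PDIA6, CALR and CANX, none of which was called. Their log2 fold changes ran from -0.09 to 0.20. For CRELD2, PDIA6 and CANX the 30 bases around the match are given, with the element in capitals and on the opposite strand in CRELD2. The CANX site is the same stretch seen from 3 of its start sites.
CRELD2, chr22:50312197-50312226, plus strand: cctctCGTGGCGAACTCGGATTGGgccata
PDIA6, chr2:10952973-10953002, minus strand: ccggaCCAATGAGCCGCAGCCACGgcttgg
CANX, chr5:179125774-179125803, plus strand: cccggCCAATCTTCACACTCCACGaagaat

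For XBP1 and CALR the stretch from 250 bases before the start site to the first base of any annotated exon is given, since one is the classical ATF6 target and the other the most abundant member. The capitals again mark the ERSE, which lies on the opposite strand in CALR.
XBP1, chr22:29196586-29196807, minus strand: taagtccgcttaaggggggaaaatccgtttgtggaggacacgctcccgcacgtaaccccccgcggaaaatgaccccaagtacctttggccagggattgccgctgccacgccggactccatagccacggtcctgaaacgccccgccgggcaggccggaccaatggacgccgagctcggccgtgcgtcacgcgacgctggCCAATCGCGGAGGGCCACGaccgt
CALR, chr19:13049173-13049391, plus strand: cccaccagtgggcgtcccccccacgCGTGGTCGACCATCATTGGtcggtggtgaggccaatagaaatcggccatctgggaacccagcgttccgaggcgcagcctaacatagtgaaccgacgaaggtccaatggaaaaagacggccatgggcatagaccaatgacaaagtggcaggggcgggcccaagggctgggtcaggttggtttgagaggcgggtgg

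Beyond the 42 genes, 2 further lists were read from the same fit. Of 26 other ISR genes (kinase and eIF2B subunits, transporters, tRNA synthetases, one-carbon enzymes), 25 were tested. Among those, 1 rose and 2 fell (4% and 8%), near the 4.97% and 5.97% of all genes. Their median log2 fold change was -0.01. FGF21, a stress hormone, had 1, 2, 7 and 1 counts and was not tested. KLHL24, a ubiquitin ligase adaptor and ATF4 target, rose at 20.4, 21.6, 45.1 and 61.3 CPM (1.34 ± 0.174, edgeR adjusted p = 0.0211).

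The 2 that fell were amino acid transporters. SLC7A5, which brings in leucine as the partner of SLC3A2, measured 483, 494, 206 and 166 CPM, and it fell by 1.39 on the log2 scale, to 0.381 of Ctrl (edgeR adjusted p = 0.0154). SLC7A11, which brings in cystine, measured 287, 285, 204 and 166 CPM, to 0.647 of Ctrl (edgeR adjusted p = 0.0376). In both, PRMT3-KD 2 was the lowest of the 4 libraries.

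SHMT2 and MTHFD2, enzymes of mitochondrial one-carbon metabolism, were also lower in both depleted libraries. SHMT2 measured 157, 155, 118 and 102 CPM (-0.50 ± 0.0972, edgeR adjusted p = 0.0386, under 1.5-fold), and MTHFD2 139, 135, 117 and 84.5 CPM (-0.45 ± 0.172, edgeR adjusted p = 0.141). SLC3A2, singled out after its values were seen, had the same split as ASNS at 216, 207, 297 and 122 CPM.

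Of 36 other ER stress genes tested, edgeR called 0 higher and 1 lower (0% and 2.78%, against 4.97% and 5.97% of all genes). At an unadjusted p under 0.05 and over 1.5-fold there were 1 and 2 (7.82% and 9.13% of all genes). Their median log2 fold change was 0.07. CREB3L2, an ATF6-like factor of the ER membrane, fell at 151, 151, 61.2 and 79.9 CPM, to 0.468 of Ctrl (-1.10 ± 0.146, edgeR adjusted p = 0.0215). HSPA5 (BiP), the chaperone whose rise is the usual sign of ER stress, was lower in both depleted libraries, at 898, 891, 726 and 579 CPM (-0.46 ± 0.128, edgeR adjusted p = 0.077).

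Estimates of other chaperones of this list lay on both sides of 0. DNAJC3 and DNAJC10, ER co-chaperones named after their values were seen, were lower in both depleted libraries like HSPA5, with log2 fold changes of -0.16 and -0.16 (edgeR adjusted p = 0.201 and 0.174). HSP90B1, the ER form of HSP90, measured 1156, 1147, 1018 and 1539 CPM, on opposite sides of Ctrl (0.15 ± 0.21, edgeR adjusted p = 0.639). DNAJB9, a co-chaperone of BiP that IRE1 signalling induces, measured 20.7, 20.0, 52.9 and 32.8 CPM, higher in both (1.07 ± 0.25, edgeR adjusted p = 0.0538), and DESeq2 called it. DNAJB11, another co-chaperone of BiP, measured 187, 183, 289 and 253 CPM (0.55 ± 0.0924, edgeR adjusted p = 0.0306, 1.47-fold).

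**Figure D4:**
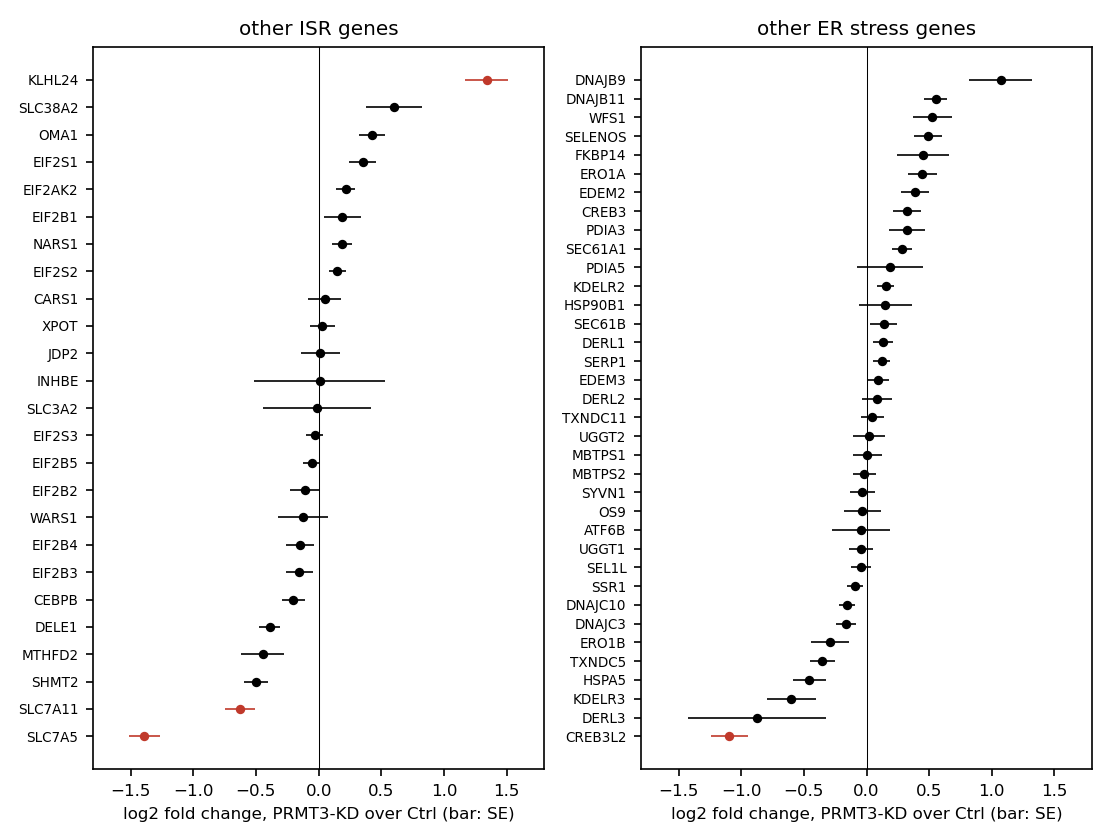
Log2 fold change of PRMT3-KD against Ctrl (horizontal axis; point, estimate; bar, SE) for every tested gene of the 2 further lists, with genes past the threshold in red. KLHL24 at 1.34 lies to the right of 0, SLC7A5 at -1.39 and CREB3L2 at -1.10 to the left, and HSP90B1 at 0.15 spans 0.

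The 3′ untranslated regions were also read for the 7-base word CAGCTCA, chosen because earlier results of these data had it more often in fallen genes. Over all tested genes with an annotated 3′ untranslated region, 17.4% carried it, and the median log2 fold change was -0.11 with it and 0.03 without. As the word was picked from these same data, that difference restates the choice and is no separate support. The length of the region, which affects how often any word occurs, was not taken into account. Among the members 9 of 41 (22%) carried it. It was in the fallen EIF2AK1 and ALDH18A1 and not in CEBPG, and in the risen ERN1 and NUPR1 and not in GDF15. Of 766 fallen genes with such a region in the whole fit, 258 carried the word, as did 72 risen genes. As fallen genes of these data led to its choice, finding the word in fallen members is no separate support. The part of the word in these changes was not tested.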

How the data were processed

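RNA was sequenced from 2 Ctrl and 2 PRMT3-KD libraries of U251 cells, grouped and numbered by their labels. The authors deposited 1 table of unnormalized read counts per gene. The submitters' notes and the study's methods name CASAVA, TopHat, hg19, Cufflinks and DESeq2; their versions, the gene annotation and strand handling are not given in the sources used here. One duplicate entry was removed, and 99.9% of identifiers matched GENCODE 44 lifted to GRCh37. Its exons, merged over all transcripts of a gene, gave the lengths for RPKM.

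Counts were tested in R 4.3.3 with edgeR 4.0.16 (filterByExpr with a minimum count of 10 and a minimum total of 15, TMM, glmQLFit and glmQLFTest), with Benjamini-Hochberg adjustment over 13172 genes. Each SE is the size of the log2 fold change over the square root of its F value, and SDs are over 2 libraries. Scripts were tested on simulated data. Log2 values of single libraries used a prior count of 0.5.

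The members were set by name and not picked by measured value, although earlier results of these data were known when the members and lists were chosen. Named genes were all members, every gene of the 2 further lists past the threshold, a fixed few of those lists (HSPA5, HSP90B1, DNAJB9, MTHFD2, SHMT2, SLC7A11) and PRMT3. DNAJB11, DNAJC3, DNAJC10, EIF2AK2, FGF21 and SLC3A2 were named after their values were seen, as were the cell type markers shown. Alternatives were DESeq2 1.42.0, upper-quartile scaling, library totals, 2 count filters, the replicate number as a block, limma-voom (limma 3.58.1) with group weights, other fold thresholds and leaving out each library; CBS and CBSL were summed as an alternative added after the data were seen. Promoter sequence came from the RefSeq table. Counting error at these depths limits genes with few counts.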

Additional observations from a re-analysis of the deposited data

How the results depend on the processing

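The 6 called members kept their direction under all settings run, which the lack of overlap between their groups made nearly certain beforehand. Members called higher, 3 in the report, were 8 with DESeq2, 7 with limma-voom, 5 with no fold threshold and 1 at 2-fold, and 0 to 13 with 1 library left out. The shares of all genes called higher were 6.39%, 5.98%, 8.39% and 1.73% under the first 4, and 0% to 10.7% with 1 library left out. Members called lower, also 3, were 5 with library totals, 5 with no fold threshold and 2 at 2-fold, and 0 to 9 with 1 library left out, against 5.72%, 8.91%, 2.16% and 0% to 12.2% of all genes. Other ISR genes called higher were 1, 2 with DESeq2 and 0 to 2 with a library left out. Those called lower were 2, 1 with library totals, 4 with no fold threshold, 1 at 2-fold and 0 to 5 with a library left out. Other ER stress genes called higher were 0, 1 with DESeq2, with the replicate block, with limma-voom and with no fold threshold, and 0 to 3 with a library left out. Those called lower were 1, 2 with limma-voom and 0 to 3 with a library left out. Without either Ctrl library edgeR called 0 genes of the whole table, since the spread then came from the PRMT3-KD pair. For the 2 further lists the same shares of all genes apply. In addition, 5.03% of all genes were called higher with the replicate block and 6.85% lower with limma-voom. Samples with the same replicate number share no more than the number, as far as the labels say, and the differences between replicates 2 and 1 in the 2 groups correlated at 0.058 across genes. With the replicate block VLDLR (0.69, adjusted p = 0.0424) and DNAJB9 (1.03, adjusted p = 0.0285) also passed.

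Signs turned for genes near 0 or with divided PRMT3-KD libraries. ASNS was at -0.0228 with the replicate block and -0.0569 with limma-voom, PSAT1 at -0.0392 and -0.0530, and PDIA4 at -0.0122 and -0.0105, with -0.0356 for library totals and -0.00095 for at least 10 counts in every library. CBS summed with CBSL was at 0.0906. With 1 library left out, values ran from -0.27 to 0.80 for DDIT3, -0.44 to 0.77 for CHAC1, -0.79 to 0.72 for ASNS, -0.50 to 0.42 for PSAT1, -0.19 to 0.35 for GPT2, -0.17 to 0.14 for ALDH1L2, -0.28 to 0.43 for SDF2L1, -0.13 to 0.0299 for CRELD2, -0.27 to 0.0456 for MANF, -0.22 to 0.19 for PDIA4, -0.17 to 0.41 for CALR and -0.18 to 0.42 for HSP90B1. Of 358 single-gene comparisons other than leaving out a library, 330 kept direction and side of the threshold, 2 lost the call, 17 gained it and 9 turned sign; the causes were not tested. The small number of libraries limits all p-values here.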
